A study of Mus musculus with 36 samples.

Results

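The Notch receptors and target genes comprised 7 listed genes, chosen by symbol, of which 6 had a row among the 12762 genes of the deposited table: Notch1, Notch2, Rbpj, Maml1, Nrarp and Hes1. Dtx1 was not analysed here. The messenger RNA of the mouse pre-B cell line B3 was sequenced in 36 libraries. There were 2 lines, control and Ikaros, each with 3 libraries per time (0, 2, 6, 12, 18 and 24 h), or 12 groups. The Ikaros line carried a retroviral HA-Ikaros-ERt2 fusion followed by IRES-GFP, and the control line carried the same vector with ERt2 and GFP but without Ikaros. Both were populations of transduced cells sorted for GFP. 4-hydroxytamoxifen (4-OHT), the ligand that moves an ERt2 fusion protein into the nucleus, was given to both lines. The labels list 0.5 µM 4-OHT for every library, 0 h included, while the study's methods have the 0 h cultures collected separately and untreated. The libraries came from numbered culture batches, namely 1, 2 and 4 at 0 h and 1, 3 and 4 later, and values are given in that order throughout. These cells were a line driven to differentiate by an introduced fusion protein, not primary pre-B cells.

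Notch receptors are single-pass membrane proteins. On binding a ligand of a neighbouring cell they are cleaved, first by ADAM metalloproteases and then by gamma-secretase, and the released intracellular domain enters the nucleus. There it joins the DNA-binding protein RBPJ and a Mastermind-like coactivator such as MAML1 to switch on targets such as Hes1, a transcriptional repressor, and Nrarp, a small ankyrin repeat protein that limits Notch signalling. In lymphocyte precursors Notch1 is known for directing cells to the T lineage, and Notch2 for marginal zone B cells. Ikaros is known to bind DNA letters that overlap those read by RBPJ and to oppose Notch target genes in T cell precursors.

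All 6 measured genes are protein-coding, and each value covers reads assigned to a whole gene. On GRCm38 (mm10), Notch1 (ENSMUSG00000026923) lies on chromosome 2 from 26457903 to 26516663 on the minus strand. Nrarp (ENSMUSG00000078202) lies on the same chromosome from 25180758 to 25183339 on the plus strand, 1.27 Mb away. Notch2 (ENSMUSG00000027878) occupies 98013527 to 98150361 of chromosome 3, plus strand. Rbpj (ENSMUSG00000039191) occupies 53466152 to 53657362 of chromosome 5, plus strand. Hes1 (ENSMUSG00000022528) spans 30064384 to 30067796 of chromosome 16, plus strand, and Maml1 (ENSMUSG00000050567) spans 50255634 to 50292311 of chromosome 11, minus strand.

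RBPJ recognises the core letters TGGGAA, so the RefSeq promoters (GRCm38.p6) were searched for them on both strands in the 250 bases before each start. An entry was matched for 5 of the 6 measured genes, and for Hes1 none was matched. Rbpj alone of the 5 held the letters, against 21.6% of the 32851 promoters in the table, and no match was found in the window of Notch1, Notch2, Nrarp or Maml1. The first listed start of Rbpj had 2 matches, from 149 to 144 bases before the start on the gene's strand and from 65 to 60 on the other. The second listed start of Rbpj has the latter match at 205 to 200 bases before it. The windows of Rbpj and of Notch1 (26503823 to 26504072) lie inside the gene spans given above. The outermost starts of these 2 spans were therefore not searched. Hes5, a target gene outside the 7, had 2 matches, and both extended to GTGGGAA, which 5.42% of promoters held. The windows below are those of Rbpj, of Nrarp, which fell furthest among the 6, and of Hes5, whose 24 h difference between the lines was the most negative among the other target genes. TGGGAA or its reverse complement is in capitals. A match describes letters and not a bound site.
Rbpj, chr5:53590096-53590345, plus strand: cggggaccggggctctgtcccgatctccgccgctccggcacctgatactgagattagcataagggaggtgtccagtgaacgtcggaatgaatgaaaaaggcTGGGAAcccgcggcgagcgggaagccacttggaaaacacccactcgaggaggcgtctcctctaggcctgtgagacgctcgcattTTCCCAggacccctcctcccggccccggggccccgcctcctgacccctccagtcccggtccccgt
Nrarp, chr2:25180508-25180757, plus strand: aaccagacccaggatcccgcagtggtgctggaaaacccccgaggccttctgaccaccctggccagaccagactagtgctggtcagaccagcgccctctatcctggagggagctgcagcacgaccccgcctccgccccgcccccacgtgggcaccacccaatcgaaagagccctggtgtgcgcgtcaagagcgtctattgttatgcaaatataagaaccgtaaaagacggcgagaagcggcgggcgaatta
Hes5, chr4:154960673-154960922, plus strand: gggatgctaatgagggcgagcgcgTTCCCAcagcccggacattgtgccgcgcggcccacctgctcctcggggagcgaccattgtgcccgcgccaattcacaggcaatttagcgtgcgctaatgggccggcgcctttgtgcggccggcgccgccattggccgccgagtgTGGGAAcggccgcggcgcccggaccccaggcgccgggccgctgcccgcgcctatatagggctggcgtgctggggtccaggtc

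The deposited values were on a log2 scale corrected for GC content, gene length and library preparation, with a constant added, so a level is relative to that constant while a difference between libraries is not affected by it. Library medians ran from 11.70 to 11.73, read depth is unknown for these values, and precision was limited by the 3 libraries in a group. Differences are Ikaros minus control cells with their standard error (SE) from limma over all 36 libraries, and genes with a Benjamini-Hochberg p under 0.05 over all 12762 genes are those written as called. In bulk RNA, fewer cells expressing a gene and less RNA per cell cannot be told apart. Ikzf1, which encodes Ikaros, read 20.02, 19.71 and 19.94 in Ikaros cells and 14.77, 14.59 and 14.74 in control cells at 0 h. Ikzf1 thus matched the line given in the labels, and it does not check the labels of time or batch. Its difference ran from 5.19 to 6.26 over the 6 times, and reads of the introduced and the native gene cannot be told apart.

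Defining pre-B markers were present, with median library levels of 18.46 for Cd79a and 16.30 for Pax5. Of the markers of other cells, 1 of 8 T lineage genes (Lck), 2 of 6 myeloid genes (Itgam and Lyz2) and 1 of 6 stromal genes (Vim) had a row, and the others were not analysed here. Several moved between the lines at 24 h. The summed myeloid level spanned 9.22 to 9.67 in Ikaros cells and 7.28 to 8.74 in control cells, with Itgam higher by 4.24 and Lyz2 lower by a log2 difference of -2.94. Vim lay at 15.74 to 15.89 against 14.72 to 14.96, and Lck at 10.88 to 11.18 against 10.86 to 11.21. The pre-B sum lay at 19.80 to 19.88 against 19.24 to 19.38, with Rag1 higher by 5.19 and Vpreb1 changed by -3.42. The part of these genes in the results below was not tested.

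Among the 6 measured genes, none was called between the lines at 0 h in the fit of all libraries (Notch1 was in 2 other fits given below), where limma gave 0 of 6 at an unadjusted p under 0.05 and 8.33% of all genes were called. For 2, 6, 12, 18 and 24 h the numbers called were 2, 3, 3, 5 and 5, as 19.1%, 37.3%, 45.8%, 58.2% and 62.9% of all genes were. So at 18 and 24 h, calls were common among the 6 and among all genes alike. Of the 5 at 24 h, Notch2 and Maml1 were higher in Ikaros cells and Rbpj, Nrarp and Hes1 were lower, where 31% of all genes were called higher and 31.9% lower. The median difference of the 6 was -0.51 at 24 h, beside -0.01 over all genes. Over the 6 times in order, groups did not overlap for 3, 2, 2, 4, 5 and 5 of the 6 genes, against 32.7%, 27.9%, 41%, 51%, 64.5% and 71% of all genes. Since the lines could differ before induction, the change of each difference from its 0 h value was also tested. The F test over the 5 changes called Rbpj, Hes1, Nrarp and Maml1 (adjusted p = 0.0450, 8.07e-05, 8.42e-07 and 0.000201), and not Notch1 or Notch2 (adjusted p = 0.415 and 0.0820), where 59.8% of all genes were called.

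**Figure D1:**
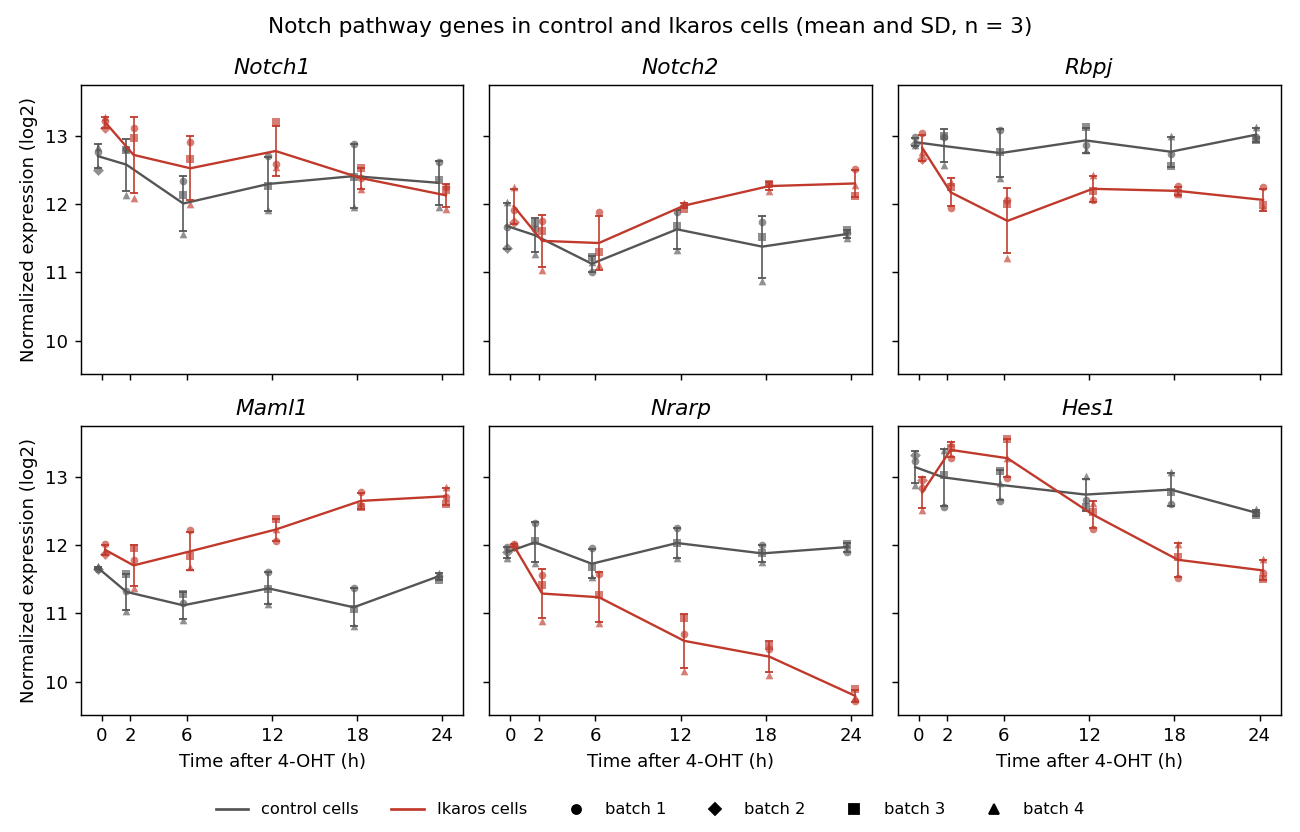
Normalized expression (log2) of the 6 measured genes against time after 4-OHT (h) in control cells (grey) and Ikaros cells (red), with lines through the means, error bars of 1 SD (n = 3) and a marker shape for each culture batch. Nrarp in Ikaros cells went from 11.99 at 0 h to 9.80 at 24 h, Maml1 from 11.93 to 12.71, and Hes1 from 12.77 through 13.39 at 2 h to 11.63.

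Notch1, the receptor of T lineage commitment, was not called between the lines at any time in the fit of all 36 libraries, and its level in Ikaros cells fell over the day. At 0 h the libraries read 13.22, 13.11 and 13.27 in Ikaros cells and 12.76, 12.50 and 12.84 in control cells. All 3 Ikaros libraries were above all 3 controls, by 0.50 ± 0.28 (SE, adjusted p = 0.367). That difference was called with the 0 h cultures as blocks of their own (adjusted p = 0.042) and in the fit of the 2 groups alone (adjusted p = 0.0483). The values were 12.91, 12.65 and 12.00 against 12.33, 12.14 and 11.55 at 6 h, and 12.59, 13.19 and 12.54 against 12.70, 12.26 and 11.92 at 12 h. Batch 4 gave the lowest value of each line at both times. The differences were 0.51 ± 0.28 at 6 h (adjusted p = 0.158) and 0.48 ± 0.28 at 12 h (adjusted p = 0.172). With culture batch as a block they were called, at adjusted p = 0.0311 and 0.0372. Within batches the 6 h differences were 0.58, 0.52 and 0.45, while those at 12 h were -0.11, 0.93 and 0.62. By 18 and 24 h the lines overlapped, at 12.24, 12.21 and 11.93 in Ikaros and 12.61, 12.36 and 11.96 in control cells at the last time, a difference of -0.18 with a 95% interval of -0.77 to 0.40. The 6 h difference was also called without the Ikaros library of batch 4 (0.77, adjusted p = 0.0486). On the other strand, 0610009E02Rik overlaps Notch1 and has its own row, with group means of 7.09 to 8.03. Its difference was -0.84 at 6 h and 0.84 at 12 h (adjusted p = 0.0593 and 0.05001), and it was called at no time. The strand setting of the counting was not stated, so its reads may not be fully separated from those of Notch1.

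Within the Ikaros line, Notch1 was lower than at 0 h by a difference of -0.82 at 18 h and -1.07 at 24 h (adjusted p = 0.0169 and 0.00201). The values at 2 h were 13.11, 12.97 and 12.08, and those at 18 h were 12.39, 12.53 and 12.22. In the order of levels (0, 12, 2, 6, 18 and 24 h) the ranges of each pair of neighbours overlapped. Control cells had a 6 h difference from 0 h of -0.69 (adjusted p = 0.117), and the change of the difference between the lines by 24 h was -0.68 (adjusted p = 0.169). With the batch block both were called, at adjusted p = 0.0107 and 0.0361. So were the Ikaros values at 2, 6 and 12 h against 0 h (adjusted p = 0.0252, 0.00288 and 0.0249) and at 24 h against 2 h (adjusted p = 0.00875), and none of these 6 was called without it. The block joins 0 h and later libraries by batch number, although the 0 h cultures were collected separately. Its p-values for a line against 0 h are uncertain to that extent. The 18 h fall was not called when replicate 1 was left out of every group (-0.81, adjusted p = 0.074) or replicate 2 was (-0.94, adjusted p = 0.0997).

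Notch2, the receptor of marginal zone B cells, was higher in Ikaros cells at 18 and 24 h. Its 18 h libraries read 12.30, 12.30 and 12.19 in Ikaros cells and 11.74, 11.52 and 10.87 in control cells. At 24 h they read 12.52, 12.11 and 12.27 and 11.57, 11.61 and 11.50. The groups did not overlap at either time, and the control library of batch 4 was low at 18 h. The differences were 0.89 ± 0.22 (SE, adjusted p = 0.00109) and 0.74 ± 0.22 (adjusted p = 0.00473), or 1.85 and 1.67 times the control level. The 24 h call was lost when replicate 1 was left out of every group (0.64, adjusted p = 0.0647). Earlier, differences were 0.29, -0.08, 0.30 and 0.35 at 0, 2, 6 and 12 h, and none was called (adjusted p from 0.203 to 0.848). The values behind them overlapped at 0, 2 and 6 h, as at 2 h with 11.75, 11.61 and 11.03 against 11.64, 11.73 and 11.26. At 12 h the Ikaros libraries (11.99, 11.93 and 12.01) were above all controls (11.88, 11.68 and 11.32).

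The Notch2 level in Ikaros cells was lowest at 6 h and highest at 24 h. It was 11.97 ± 0.25 (SD, n = 3) at 0 h, 11.43 ± 0.40 at 6 h and 12.30 ± 0.20 at 24 h. In the order of levels (6, 2, 0, 12, 18 and 24 h) only 12 and 18 h were neighbours whose ranges did not overlap. Against 0 h, the 24 h level in Ikaros cells differed by 0.33 and was not called (adjusted p = 0.193). The change of the difference between the lines from 0 h was 0.60 at 18 h and 0.45 at 24 h. Without a block neither change was called (adjusted p = 0.122 and 0.239). The rise from 2 to 24 h was 0.84 ± 0.22 (adjusted p = 0.00175), and the differences from 0 h, of -0.51 at 2 h and -0.54 at 6 h, missed the threshold (adjusted p = 0.1 and 0.0599). With the batch block these were called at adjusted p = 0.0197 and 0.0105, as was the control difference from 0 h at 6 h of -0.55 (adjusted p = 0.106 without and 0.0218 with it, fitted value -0.71).

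**Figure D2:**
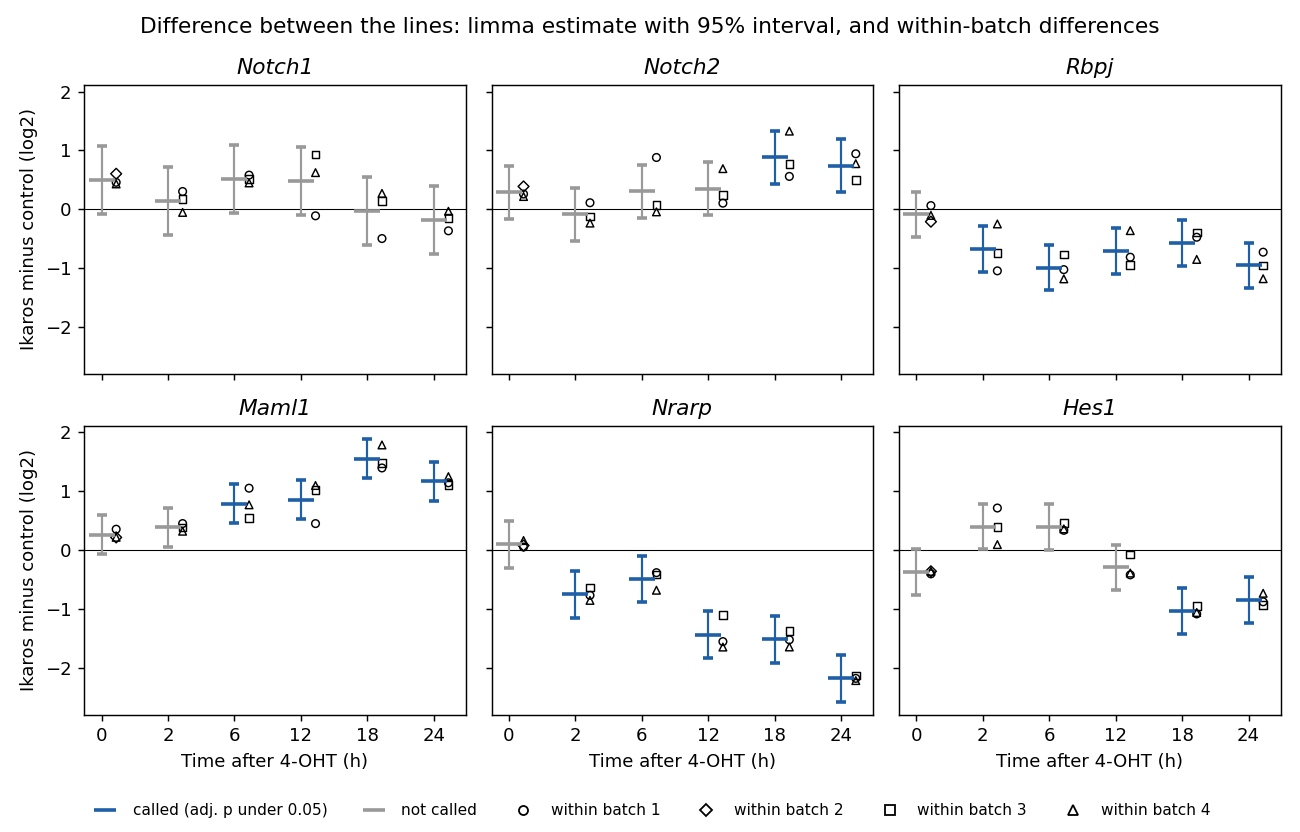
Ikaros minus control difference (log2) of each gene against time after 4-OHT (h). Bars are the limma estimate with its 95% interval, blue where called and grey where not, and open symbols are the difference within each culture batch. The differences of Nrarp went from 0.10 at 0 h to -2.17 at 24 h, those of Maml1 from 0.27 to 1.17, and Hes1 lay above 0 at 2 and 6 h and below it from 12 h.

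Rbpj, the DNA-binding component on which all Notch receptors converge, was lower in Ikaros cells at each time after 0 h. At 0 h the lines overlapped, with 13.04, 12.66 and 12.77 in Ikaros and 12.97, 12.87 and 12.87 in control cells (difference -0.08, 95% interval -0.47 to 0.30). At 2 h the Ikaros libraries read 11.94, 12.26 and 12.32 against 12.98, 12.99 and 12.57. At 6 h they read 12.06, 12.00 and 11.21 against 13.08, 12.76 and 12.39. At both times every Ikaros library lay below every control, and that of batch 4 at 6 h was lowest of all. The 12 h values were 12.05, 12.18 and 12.43 against 12.86, 13.13 and 12.79, and those of 18 h were 12.26, 12.17 and 12.15 against 12.74, 12.56 and 13.00. At 24 h, 12.25, 11.98 and 11.95 stood against 12.98, 12.93 and 13.13. None of these groups overlapped, and all 3 within-batch differences were negative at each time from 2 h on. The differences for 2, 6, 12, 18 and 24 h were -0.68, -0.99, -0.71, -0.57 and -0.95, each with an SE of 0.19 (adjusted p = 0.0112, 0.000156, 0.0029, 0.0106 and 8.03e-05). At 24 h the Ikaros level was 0.516 times the control level.

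Rbpj in Ikaros cells was below its 0 h level at every later time, and its mean was lowest at 6 h. Against 0 h the difference was -0.65 at 2 h (adjusted p = 0.0166), -1.07 at 6 h and -0.76 at 24 h (adjusted p = 7.44e-05 and 0.00101). In the order of levels, 0 h alone stood apart, and the ranges of 2, 6, 12, 18 and 24 h overlapped with their neighbours. The level at 24 h differed from that at 2 h by -0.11 (95% interval -0.50 to 0.27), and control cells differed from their 0 h level by -0.16 to 0.11 at the 5 later times. The change of the difference between the lines from 0 h was not called at 2 h (-0.59, adjusted p = 0.326) and was called at 6 h (-0.91, adjusted p = 0.0187) and 24 h (-0.87, adjusted p = 0.00809). In between, it was not called at 12 h (-0.62, adjusted p = 0.0773) or 18 h (-0.49, adjusted p = 0.141).

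Several Rbpj calls were lost when a single library was left out, which also leaves its group with fewer libraries. The 2 h difference was not called without the control library of batch 1 (-0.61, adjusted p = 0.0559) or batch 3 (-0.60, adjusted p = 0.0553) or the Ikaros library of batch 1 (-0.56, adjusted p = 0.067). The 18 h difference was not called without the control library of batch 4 (-0.46, adjusted p = 0.0657). The change at 6 h was not called without the batch 1 control (-0.74, adjusted p = 0.0649) or batch 4 Ikaros library at 6 h (-0.63, adjusted p = 0.0699), nor without the batch 1 Ikaros library at 0 h (-0.80, adjusted p = 0.0563). Values stayed below 0 in each case. Fitted on only the 2 groups compared, the 2 and 6 h differences had adjusted p = 0.0917 and 0.0715. Rbpj has near-identical processed pseudogenes, so its level is uncertain to that extent. Rbpj-ps3, which has its own row, lay between 6.05 and 8.54 in group means, far below Rbpj, and differed by 0.01 at 24 h and -1.49 at 12 h (adjusted p = 0.991 and 0.0331).

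Maml1, a Mastermind-like coactivator of the RBPJ complex, was higher in Ikaros cells from 6 h on. At 0 h the libraries read 12.01, 11.87 and 11.91 in Ikaros and 11.65, 11.65 and 11.69 in control cells. All Ikaros values were already above all controls, by 0.27 ± 0.16 (SE, adjusted p = 0.407). At 2 h the libraries read 11.78, 11.96 and 11.36 against 11.33, 11.57 and 11.04, and at 6 h 12.21, 11.83 and 11.68 against 11.16, 11.29 and 10.91. The lines overlapped at 2 h and separated at 6 h. At 12 h they read 12.06, 12.38 and 12.24 against 11.61, 11.35 and 11.14, and at 18 h 12.77, 12.55 and 12.61 against 11.38, 11.07 and 10.82. At 24 h, 12.70, 12.59 and 12.84 stood against 11.55, 11.49 and 11.59. The groups stayed apart from 6 h to 24 h, with positive differences within every batch. The differences for 2, 6, 12, 18 and 24 h were 0.39, 0.79, 0.86, 1.56 and 1.17, each with an SE of 0.16 (adjusted p = 0.0984, 0.000371, 8.66e-05, 5.1e-09 and 5.28e-07). This was 2.94 times the control level at 18 h and 2.25 times at 24 h. The 2 h difference was called without the batch 3 control (0.52, adjusted p = 0.0476) or the batch 4 Ikaros library (0.56, adjusted p = 0.0244).

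The Maml1 level moved in both lines. In Ikaros cells the difference from 0 h was 0.72 at 18 h and 0.78 at 24 h (adjusted p = 0.000513 and 0.000155), and -0.02 at 6 h. Control cells were below their 0 h level by a difference of -0.55 at 6 h (adjusted p = 0.0476), the only call among the 6 genes for control cells against 0 h, where 5.1% of all genes were called at 6 h. That call was lost when replicate 1, 2 or 3 was left out of every group (-0.57, adjusted p = 0.274, -0.64, adjusted p = 0.18 and -0.43, adjusted p = 0.13) and in the fit of the 2 groups alone (adjusted p = 0.112). At 2, 12, 18 and 24 h limma called 0 of the 6 in control cells, with 1 at an unadjusted p under 0.05 each time, and 0.047%, 0.0549%, 0.478% and 0.47% of all genes. Between 2 and 24 h it also called 0 in control cells (1 at an unadjusted p under 0.05) and 0.454% of all genes. The change of the difference between the lines from 0 h was not called at 2 h (0.12, adjusted p = 0.897) or 6 h (0.52, adjusted p = 0.124). This change was 0.59 at 12 h (adjusted p = 0.0509, and 0.0286 with the batch block), 1.29 at 18 h (adjusted p = 4.79e-05) and 0.90 at 24 h (adjusted p = 0.00184). The 12 h change was also called without the control (0.71, adjusted p = 0.0257) or the Ikaros (0.68, adjusted p = 0.0369) library of batch 1. Gm26542, an antisense gene overlapping Maml1 with its own row, was lower in Ikaros cells already at 0 h, by a difference of -1.33 (adjusted p = 0.0296). Its difference was -0.36 at 6 h and -2.07 at 24 h (adjusted p = 0.494 and 4e-05). The strand setting of the counting was not stated, so reads of these partners may not be fully separated.

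Nrarp, a direct Notch target that acts as feedback inhibitor, had the largest difference of the 6 at 2, 12 and 24 h. At 0 h it read 12.02, 11.98 and 11.97 in Ikaros and 11.96, 11.90 and 11.81 in control cells, a difference of 0.10 (95% interval -0.30 to 0.50). At 2 h the libraries read 11.56, 11.42 and 10.89 against 12.33, 12.05 and 11.74, and at 6 h 11.58, 11.27 and 10.86 against 11.96, 11.68 and 11.53. The lines were separate at 2 h and overlapped at 6 h, where the batch 1 Ikaros library was above the batch 4 control. At 12 h they read 10.70, 10.94 and 10.16 against 12.25, 12.03 and 11.80, and at 18 h 10.48, 10.52 and 10.10 against 12.00, 11.89 and 11.74. The 24 h libraries read 9.72, 9.89 and 9.78 against 11.90, 12.02 and 11.99. Every Ikaros library was more than 0.8 below every control from 12 h, and within-batch differences at 24 h were -2.18, -2.13 and -2.21. The differences for 2, 6, 12, 18 and 24 h were -0.75, -0.49, -1.43, -1.51 and -2.17, each with an SE of 0.19 (adjusted p = 0.0064, 0.0475, 8.35e-07, 1.85e-07 and 1.98e-10). The Ikaros level at 24 h was 0.222 times the control level.

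The Nrarp level in Ikaros cells was lower than at 0 h at every later time, by differences of -0.70, -0.76, -1.39, -1.63 and -2.19 (adjusted p from 1.87e-10 to 0.0122). In the order of levels, 0 h stood above and 24 h below all the others, and neighbouring times in between overlapped. Control cells showed no call, with differences from 0 h between -0.17 and 0.15. For 12, 18 and 24 h the change of the difference between the lines was -1.53, -1.61 and -2.27 (adjusted p = 0.000101, 2.66e-05 and 1.16e-07). At 2 and 6 h it was -0.85 and -0.59 (adjusted p = 0.0969 and 0.151), and with the batch block both were called (adjusted p = 0.00993 and 0.0345). The early calls were the less stable ones. The 2 h difference was not called without the control library of batch 1 (-0.61, adjusted p = 0.0563) or the Ikaros library of batch 4 (-0.55, adjusted p = 0.0667). The 6 h difference was not called without the control library of batch 1 (-0.37, adjusted p = 0.189) or 3 (-0.51, adjusted p = 0.073) or the Ikaros library of batch 3 (-0.51, adjusted p = 0.0778) or 4 (-0.30, adjusted p = 0.262). Leaving out the batch 4 control at 2 h brought the 2 h change past the threshold (adjusted p = 0.0434).

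Hes1, the repressor that is the best known target of Notch, rose and then fell in Ikaros cells. At 0 h the libraries read 12.83, 12.95 and 12.51 in Ikaros and 13.23, 13.31 and 12.87 in control cells. At 2 h they read 13.27, 13.42 and 13.49 against 12.55, 13.02 and 13.39, and at 6 h 12.98, 13.55 and 13.27 against 12.65, 13.08 and 12.91. The lines overlapped at all 3 times. At 12 h the libraries read 12.23, 12.49 and 12.62 against 12.65, 12.56 and 13.00, also with overlap. At 18 h they read 11.51, 11.83 and 12.01 against 12.59, 12.77 and 13.07, and at 24 h 11.59, 11.50 and 11.79 against 12.46, 12.43 and 12.52. At these last times every Ikaros library lay below every control. Here the differences were -1.03 and -0.84, each ± 0.19 (SE, adjusted p = 4.03e-05 and 0.000349), or 0.491 and 0.557 times the control level. For 0, 2, 6 and 12 h it was -0.37, 0.40, 0.39 and -0.29, with adjusted p = 0.29, 0.148, 0.107 and 0.216. The 3 within-batch differences were all negative at 0 h, all positive at 2 and 6 h and all negative from 12 h. The 2 h difference was called without the batch 4 control (0.60, adjusted p = 0.0303).

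In Ikaros cells Hes1 was higher than at 0 h by 0.62 at 2 h and 0.50 at 6 h (adjusted p = 0.0217 and 0.0423). It was then lower than at 0 h by a difference of -0.98 at 18 h and -1.14 at 24 h (adjusted p = 8.05e-05 and 8.85e-06), and -1.76 between 2 and 24 h (adjusted p = 8.51e-09). The levels fell into 3 tiers whose ranges did not overlap: 2 and 6 h, then 0 and 12 h, then 18 and 24 h. The 2 h rise was not called when replicate 1, 2 or 3 was left out of every group (adjusted p = 0.0518, 0.138 and 0.155), nor the 6 h rise without replicate 2 or 3 (0.46, adjusted p = 0.297 and 0.37, adjusted p = 0.171). Control cells had a difference of -0.67 at 24 h from 0 h (adjusted p = 0.134), and their 24 h range lay below those of all other times. For 2, 6, 12, 18 and 24 h the change of the difference between the lines from 0 h was 0.77, 0.76, 0.08, -0.65 and -0.47. The adjusted p was 0.138, 0.0516, 0.854, 0.0494 and 0.15, so the 24 h change was not called. The 6 h change was called with the batch block (adjusted p = 0.0214). It was also called without the batch 4 control at 0 h (0.89, adjusted p = 0.0309), the batch 3 control at 6 h (0.86, adjusted p = 0.0389), the batch 2 Ikaros library at 0 h (0.86, adjusted p = 0.0442) or the batch 1 Ikaros library at 6 h (0.90, adjusted p = 0.0275), and the 2 h change was called without the batch 4 control at 2 h (0.98, adjusted p = 0.0347).

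Over the changes from 0 h as a group, 0 of the 6 were called at 2 h by limma (3 at an unadjusted p under 0.05), and 1, 1, 3 and 3 in turn for the later times. The shares of all genes were 3.1%, 15.9%, 29.7%, 43% and 48.4%. A comparison that used no 0 h library, the change of the difference between 2 and 24 h, called 4 of the 6 beside 47.3% of all genes: Notch2 (0.82), Maml1 (0.78), Nrarp (-1.42) and Hes1 (-1.25). Rbpj, whose difference was present by 2 h, changed by -0.28 (adjusted p = 0.411). In Ikaros cells against their own 0 h level, 3, 3, 2, 5 and 5 of the 6 were called at 2, 6, 12, 18 and 24 h, with 19.2%, 32.8%, 46.1%, 54.6% and 60.6% of all genes. Between 2 and 24 h, 4 of the 6 were called in Ikaros cells and 60.6% of all genes.

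**Figure D3:**
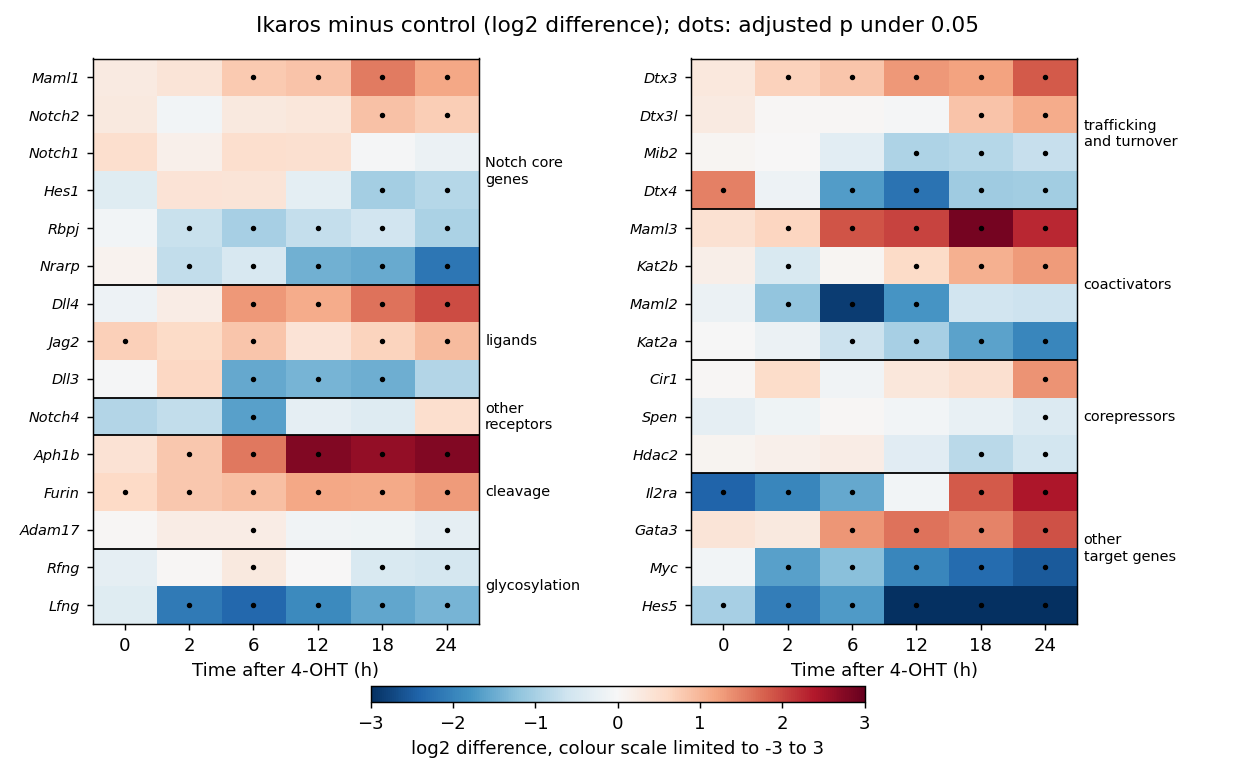
Ikaros minus control difference (log2, colour limited to -3 to 3) of the 6 measured genes and of 24 other genes of the Notch pathway that are named in the text, in rows by role, against time after 4-OHT (h) in columns, with a dot where the adjusted p was under 0.05. Red rows are higher in Ikaros cells, such as Aph1b and Maml3, and blue rows are lower, such as Hes5, Myc and Lfng.

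Of 67 other pathway genes listed, 51 had a row. They went in both directions at every time: those called higher numbered 4, 7, 16, 17, 24 and 20 from 0 to 24 h, and those called lower 3, 6, 14, 15, 16 and 18. In either direction, 13.7%, 25.5%, 58.8%, 62.7%, 78.4% and 74.5% of the 51 were called. The shares of all genes were 8.33%, 19.1%, 37.3%, 45.8%, 58.2% and 62.9%. At 24 h, 38 of the 51 (74.5%) were called, beside 62.9% of all genes (31% higher and 31.9% lower). The counts by role at 24 h below stand beside these shares, and no role was tested as a set. The median difference over the 51 was 0.15 at 24 h, beside -0.01 over all genes. Apart from those said to be named otherwise and Notch4, the genes named below had the largest called differences of each role in each direction at 24 h, and their values are those of that time unless another is given.

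Among the 3 ligands, 2 were called higher and none lower in Ikaros cells at 24 h. Dll4, a Delta-type ligand, lay at 8.15 to 8.63 in Ikaros cells and 5.57 to 6.85 in control cells, a difference of 1.97 ± 0.36 (SE, adjusted p = 3.78e-05). Jag2, a Jagged-type ligand, lay at 9.95 to 10.56 in Ikaros cells and 8.83 to 9.67 in control cells, a difference of 0.94 (adjusted p = 0.000822). Neither pair of ranges overlapped, and Dll4 was a low gene, with only 8.08% of genes below it in mean level. Jag2 was already higher by 0.72 at 0 h (adjusted p = 0.0467), and the change of its difference by 24 h was 0.22 (adjusted p = 0.609). Dll3, the other ligand, named after its values were seen, was lower by differences of -1.54, -1.40 and -1.47 at 6, 12 and 18 h (adjusted p = 0.00586, 0.00874 and 0.00442) and not called at 24 h (-0.87, adjusted p = 0.0771). Notch4, the only other receptor with a row, was called lower at 6 h (-1.63, adjusted p = 0.0125) and not at 24 h (0.50, adjusted p = 0.401). Dll3 and Notch4 were low genes too, with only 3.08% and 3.78% of genes below them in mean level.

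Among the genes of receptor cleavage, 5 of 9 were higher and 1 was lower. Aph1b, a gamma-secretase subunit, lay at 10.55 to 11.02 in Ikaros cells and 7.67 to 8.13 in control cells, higher by 2.78 ± 0.25 (adjusted p = 2.09e-10). Furin, the convertase that cuts the receptor on its way to the surface, was higher by 1.27 (adjusted p = 9.7e-12), and by 0.60 at 0 h (adjusted p = 8.49e-05). Adam17, a metalloprotease, was the one called lower, by a difference of -0.26 (adjusted p = 0.00875). All 4 genes of receptor glycosylation were lower. Lfng, a Fringe enzyme that sets which ligands a receptor responds to, lay at 9.99 to 10.15 in Ikaros cells and 11.22 to 11.91 in control cells, a difference of -1.39 (adjusted p = 3.85e-05). Its difference was larger at 2 and 6 h (-2.12 and -2.35) and not called at 0 h (-0.37, adjusted p = 0.49). Rfng, another Fringe enzyme, was lower by a difference of -0.52 (adjusted p = 0.000177), after 0.29 at 6 h, where it was called higher.

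Among the genes of trafficking and turnover, 3 of 10 were higher and 4 lower. Dtx3, a Deltex-type ubiquitin ligase, lay at 14.54 to 14.85 in Ikaros cells and 12.79 to 12.87 in control cells, higher by 1.84 (adjusted p = 2.55e-10). Dtx3l was higher by 1.12 (adjusted p = 9e-05). Dtx4 was lower by a difference of -1.04 (adjusted p = 4.55e-05), though at 0 h it had been higher by 1.51 (adjusted p = 3.8e-06). The 3 Deltex genes named here did not share 1 direction. Mib2, a ligase for Notch ligands, was lower by a difference of -0.69 (adjusted p = 0.00991).

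Of 7 coactivator genes, 4 were called higher and 1 lower at 24 h, after 2 higher and 3 lower at 6 h. Maml3, a Mastermind-like relative of Maml1, lay at 14.45 to 14.64 in Ikaros cells and 12.11 to 12.42 in control cells, higher by 2.27 ± 0.22 (adjusted p = 8.93e-10). Maml2, the other relative, was named after its values were seen: its difference was -2.84 at 6 h (adjusted p = 4.13e-08) and -0.63 at 24 h (adjusted p = 0.0715). At 24 h Maml1 and Maml3 were thus called higher and Maml2 was not called. Kat2a and Kat2b, paired histone acetyltransferases, moved in opposite directions, with Kat2a at 12.04 to 12.41 in Ikaros cells and 14.16 to 14.20 in control cells (difference -1.96, adjusted p = 1.19e-14) and Kat2b at 12.27 to 12.32 in Ikaros cells and 10.81 to 11.12 in control cells (difference 1.28, adjusted p = 5.13e-09).

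Of 10 corepressor genes, 4 were higher and 3 lower. Cir1, which links RBPJ to histone deacetylases, was higher by 1.35 (adjusted p = 0.00226) and was called at no earlier time. Hdac2, a histone deacetylase, and Spen, which recruits corepressors to RBPJ, were lower by differences of -0.56 and -0.40 (adjusted p = 0.00229 and 0.0303).

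Among 7 other target genes, 5 were lower and 2 higher. Hes5, a repressor related to Hes1 whose promoter window is shown above, lay at 7.74 to 8.88 in Ikaros cells and 10.82 to 11.67 in control cells, a difference of -3.02 ± 0.27 (adjusted p = 2.73e-10). It was lower at 0 h as well, by a difference of -0.98 (adjusted p = 0.0211), and its difference was widest at 12 h, at -4.23. Unlike Hes1 it was lower at 2 and 6 h (-2.07 and -1.69, adjusted p = 2.67e-06 and 2.13e-05). Myc, a growth regulator and Notch target in T cell leukaemia, lay at 13.22 to 13.83 in Ikaros cells and 15.96 to 16.09 in control cells, a difference of -2.52 (adjusted p = 5.99e-13), after -0.07 at 0 h and -1.63 at 2 h. The study names Myc among genes earlier found to respond to Ikaros, and reports its early fall by real-time RT-PCR. Il2ra, the interleukin-2 receptor alpha chain, changed sign, from -2.40 at 0 h (adjusted p = 1.33e-07) to 2.43 at 24 h (adjusted p = 4e-09). Gata3, a T lineage transcription factor, was higher by 1.91 (adjusted p = 0.00239), from a level with only 2.82% of genes below it.

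The genes whose 12 group means were most like those of each member, over all genes of the table, are given as a description. For Nrarp they were Ubash3b, Hspa4 and Sdad1 (Pearson r = 0.991, 0.990 and 0.990), and for Maml1 they were Elovl5, Cdkn1b and Pja2 (0.990, 0.988 and 0.984). For Rbpj they were Wdr3, BC024978 and Nup214 (0.980, 0.974 and 0.973), and for Notch2 Med13, Tmem43 and Usp22 (0.967, 0.965 and 0.964). For Hes1, Per2 and Pgs1 were among them (0.951 and 0.942). The likeness was lower for Notch1, whose nearest genes were Gfra1, Zfp280b and Zfp747 (0.901, 0.887 and 0.870). Among the 6 themselves, r over the same means was 0.90 between Notch2 and Maml1, 0.78 between Rbpj and Nrarp, and -0.87 between Nrarp and Maml1, while Notch1 had r of 0.02 to 0.36 with the other 5. All these points share their libraries and the course of the Ikaros line.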

How the data were processed

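Paired-end strand-specific RNA sequencing was used by the authors on the 36 libraries described above. Per the methods of the study, the authors aligned fragments to mm10 with TopHat2, assigned them to genes with HTSeq in an intersection mode, and normalized for gene length and GC content (cqn), then adjusted for library preparation by non-parametric ComBat (tool versions and the strand setting of the counting were not stated in the sources used here). The deposited values are log2 expression as the authors made them. The base is not written in the table, and folds here rest on base 2. The lowest value is exactly 1, so a constant seems to have been added. Depth is unknown for these values, and the earlier batch adjustment can make the SE too small.

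Each line and time had its own mean in 1 limma 3.58.1 model (R 4.3.3, 36 libraries, no filter), with two-sided p adjusted by Benjamini-Hochberg over 12762 genes. Contrasts compared the lines within a time, that difference with its 0 h value, and each line with its own 0 h. The members and lists were chosen with earlier results of these data known. Genes outside the 6 were named as the 2 largest called differences of each role in each direction at 24 h, and as the 3 with the highest Pearson r to each gene over 12 group means, and some genes these rules gave are not reported here. The labels give the control and Ikaros cultures of a time the same batch number, and deviations from group means correlated by -0.06 to 0.51 (median 0.13) over 18 pairs, 12 of them above 0.1. Batch as a block was an alternative, as were other normalizations, a filter and leaving out libraries. The block treats batches 1 and 4 at 0 h as the batches 1 and 4 of later times, although the 0 h cultures were collected separately. Fitted values of a line against 0 h can shift with it, and its p-values there rest on that pairing. The change between 2 and 24 h was added after seeing the data. On simulated 24 h values for 12762 genes, 72 of 100 changes of size 1 and 91 of 100 of size 2 (log2) were called, as were 8 unchanged genes. There the libraries were independent and all other genes unchanged, while in the data 62.9% of all genes were called at 24 h. The simulated rates therefore need not hold for these data. The p-values measure the spread between cultures of 1 population per line. Positions are from GENCODE mouse release M21 and promoter bases from RefSeq.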

Additional observations from a re-analysis of the deposited data

Results flagged for a closer look

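These results are changes over time that differed between Ikaros and control cells by the test of the difference itself, in limma with adjusted p over all 12762 genes. Nrarp fell in Ikaros cells relative to control cells, with changes from 0 h to 12, 18 and 24 h of -1.53, -1.61 and -2.27, and a change of -1.42 between 2 and 24 h (adjusted p from 1.16e-07 to 0.000109). None of these 4 Nrarp calls was lost when any single library of the groups compared was left out. For Maml1 the changes to 18 and 24 h were 1.29 and 0.90, and that between 2 and 24 h was 0.78 (adjusted p = 4.79e-05, 0.00184 and 0.00639). Rbpj changed by -0.91 at 6 h and -0.87 at 24 h (adjusted p = 0.0187 and 0.00809).

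Hes1 changed by -1.25 between 2 and 24 h (adjusted p = 0.000373) and by -0.65 from 0 h to 18 h, where the adjusted p of 0.0494 lay at the threshold. Its change from 0 h to 24 h was not called (-0.47, adjusted p = 0.15). The 18 h change was not called without the control library of batch 1 (-0.70, adjusted p = 0.0557) or 4 (-0.52, adjusted p = 0.14) at 0 h, or of batch 3 (-0.67, adjusted p = 0.0658) or 4 (-0.53, adjusted p = 0.136) at 18 h. The same held for the Ikaros library of batch 1 (-0.62, adjusted p = 0.0881) or 2 (-0.56, adjusted p = 0.121) at 0 h, or of batch 1 (-0.52, adjusted p = 0.143) or 3 (-0.68, adjusted p = 0.0639) at 18 h.

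The Notch2 change from 0 h to 24 h was not called (0.45, adjusted p = 0.239). Between 2 and 24 h it was 0.82 and was called (adjusted p = 0.031). That call was lost without the control library of batch 1 (0.77, adjusted p = 0.0621) or 3 (0.73, adjusted p = 0.0765) at 2 h or of batch 4 at 24 h (0.79, adjusted p = 0.0573), and without the Ikaros library of batch 4 at 2 h (0.60, adjusted p = 0.115) or of batch 1 at 24 h (0.71, adjusted p = 0.0828).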

How the results depend on the processing

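Values and counts were recomputed under each alternative that could give them, with single libraries left out for the differences between the lines and their changes only, and no called value of the 6 genes changed direction in these fits. Of 2028 comparisons of a value with its main value, 1829 kept direction and side of the threshold, 77 dropped below the threshold, 64 passed it and 58 small uncalled values changed sign; where no cause is named, the cause was not tested. With culture batch as a replicate block, the number called rose from 0 to 1 for the 2 h change of the difference from 0 h, from 1 to 3 for the 6 h change, from 1 to 2 for the 12 h change, from 3 to 5 for Ikaros cells against 0 h at both 2 and 6 h, and from 1 to 3 for control cells at 6 h. No other count moved by over 1.5 times with the block. With 0 h cultures as blocks of their own, counts became 1 (Notch1) for the difference at 0 h, 5 for that at 6 h, 2, 3, 2 and 5 for the changes at 2, 6, 12 and 24 h, and 1 for control cells between 2 and 24 h. That block gives no value for a line against its own 0 h. Leaving out genes under the 25th percentile of mean level, shifting libraries to one median, or trend and robust settings each gave 2 for the changes at 6 and 12 h, and quantile normalization gave 2 at 12 h. Fitting only the groups compared, which leaves fewer samples, gave 1 (Notch1), 0 and 1 for the differences at 0, 2 and 6 h, 0 and 3 for the changes at 6 and 12 h, 0 for Ikaros cells at 2 h and 0 for control cells at 6 h, the last being the Maml1 call.

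Leaving out 1 replicate of every group gave 3 to 4 genes in the F test, 0 to 2, 2 to 5, 2 to 3, 4 to 5 and 4 to 5 for the differences from 2 to 24 h, and 0 at 0 h. Changes from 0 h ran 0 to 1, 0 to 1, 1 to 2, 2 to 2 and 2 to 4, and 2 to 4 between 2 and 24 h. Ikaros cells against 0 h ran 0 to 2, 1 to 3, 1 to 3, 3 to 6 and 5 to 6, and 4 to 5 between 2 and 24 h. In control cells the count was 0 each time. Among the values in the text, uncalled ones that changed sign with a library or replicate left out were the Notch2 difference at 2 h (-0.23 to 0.13), the Maml1 Ikaros change at 6 h (-0.13 to 0.082), and, between 2 and 24 h, the Rbpj level in Ikaros cells (-0.32 to 0.017) and its change of difference (-0.57 to 0.051). Calls between the lines that ended without replicate 1 or 2 were those of Nrarp at 2 and 6 h and Rbpj at 2 h, and without replicate 2 alone those of Rbpj at 12 h (-0.59, adjusted p = 0.128) and 18 h (-0.66, adjusted p = 0.0678). The Rbpj change at 24 h (-0.93, adjusted p = 0.0854) and the Maml1 change between 2 and 24 h (0.81, adjusted p = 0.0718) also ended without it. Quantile normalization (-0.48, adjusted p = 0.0511) and 1 median for all libraries (adjusted p = 0.0527) ended the Nrarp call at 6 h. Of the 51 other pathway genes, the count called at 6 h was 30, and 15 with only the groups compared.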
